A study of Mus musculus with 6 samples.

Results

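Transcripts of 10 genes were followed in mouse liver after hepatic ischemia and reperfusion: the immediate early factor Egr1, the growth regulator Myc, the orphan nuclear receptor Nr4a1, and the Kruppel-like factors Klf2, Klf4, Klf6, Klf9, Klf10, Klf13 and Klf15. They were taken from the deposited table of 29543 genes by an exact match of the symbol, and each symbol had 1 row. RNA of whole liver was sequenced in 3 libraries of mice whose liver was made ischemic and then reperfused through a laparotomy (IR injury, IR below) and in 3 libraries of mice given the laparotomy alone (Sham). The abdominal operation is thus shared by both groups, and no genotype, strain, sex, age or time of ischemia or reperfusion is given in the sources used here. Levels are FPKM, which corrects reads for gene length and library depth, so that levels of different genes can be set side by side.

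Egr1 and Myc belong to the immediate early genes, whose transcription starts within minutes of a growth or stress signal and needs no new protein. EGR1 and the Kruppel-like factors (KLFs) bind GC-rich DNA through zinc fingers, MYC binds the E-box together with its partner MAX, and NR4A1 binds as a receptor without a known natural ligand. In liver, KLF15 promotes gluconeogenesis and amino acid breakdown, KLF9 is induced by glucocorticoids, KLF10 is induced by transforming growth factor beta and follows the clock, and KLF2 and KLF4 are known from endothelium, where blood flow induces them.

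Library totals rebuilt from the values lay between 53622230 and 71752585 reads. Of the 10 genes, 9 had a mean of at least 1 FPKM over the 6 libraries and were tested with limma on log2(FPKM + 1) among 10316 genes, and Klf4 lay under that filter. The hepatocyte genes Alb, Apoa1 and Ttr were abundant in all 6 libraries. The 5 hepatocyte markers summed to 57739 to 60784 FPKM in Sham and 47492 to 50094 in IR. Most of each sum was Alb, at 44782 to 49549 FPKM in Sham and 36745 to 39389 in IR. With FPKM as deposited Alb, Ttr and Cps1 passed as lower in IR, as did 53.8% of all genes tested. Under the median-of-ratios scaling described below no hepatocyte marker passed as lower, and Serpina1c passed as higher (limma adjusted p = 0.0241). The 7 neutrophil markers summed to 8.68 to 10.8 FPKM in Sham and 139 to 184 in IR. Of these, 6 were tested and all 6 rose, against 24.3% of all genes tested. Among them Retnlg, Mmp8 and Cxcr2 had Sham means of 0.549, 0.183 and 0.0759 FPKM. They passed the filter only through IR, so that for them being tested already meant being higher in IR. Ly6g was at 0 in at least 1 library. The sums of 6 Kupffer cell markers lay at 189 to 193 FPKM in Sham and 81.3 to 106 in IR. Those of 6 stellate cell markers lay at 78.7 to 86.2 and 22.2 to 31.7. Their part in the results below was not tested, and in whole tissue fewer cells of a type and less RNA per cell cannot be told apart. No animal is named for any library in the labels, which say only that they are replicates, and the p-values therefore cover variation among libraries that may be technical.

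Egr1, Klf6, Nr4a1, Myc and Klf2 rose in IR, Klf10 and Klf15 fell, and Klf9 and Klf13 did not pass the adjusted threshold of 0.05. Of all genes tested, 24.3% passed as higher and 53.8% as lower in IR. For the 5 genes that rose the groups did not overlap, which held for 25.4% of all genes tested in that direction, and for Klf10, Klf15 and Klf13 every IR library was below every Sham library, as for 55.2%. The median log2 fold change of the 9 genes was 0.74, and that of all genes tested was -0.23. Scaling by median-of-ratios size factors, which moved the median of all genes to 0.0027, left 38.2% of genes higher and 38.1% lower. Under it 6 of the 9 were higher and Klf10 alone lower, since Klf9 then passed as higher and Klf15 no longer passed.

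**Figure D1:**
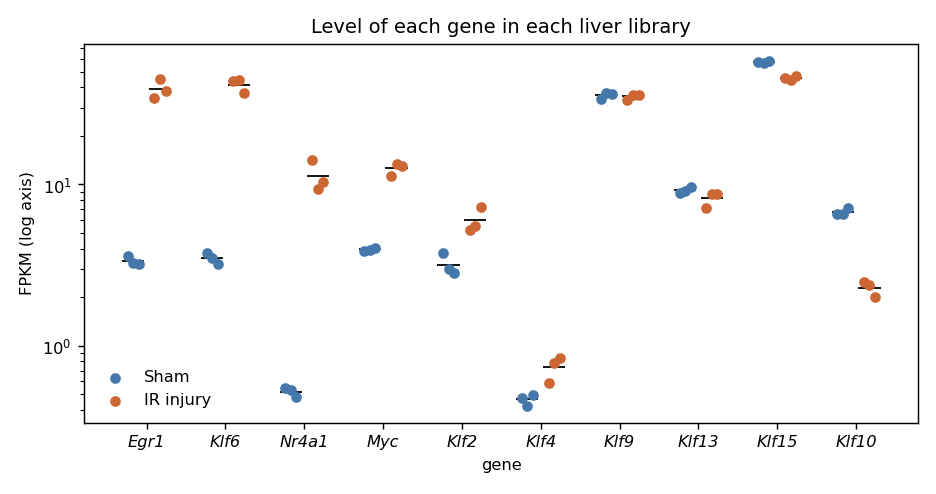
FPKM on a log axis of each of the 10 genes in the 3 Sham and the 3 IR libraries (points), with the mean of each group (black line). Egr1 and Klf6 stand at 3.20 to 3.78 FPKM in the Sham libraries and above 34 in every IR library, while the points of Klf9 overlap.

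Egr1 (ENSMUSG00000038418, chromosome 18), a zinc finger factor induced through serum response factor and its ELK partners, was at 3.59, 3.27 and 3.20 FPKM in Sham libraries 1, 2 and 3 and at 34.3, 45.2 and 37.8 FPKM in IR libraries 1, 2 and 3. The lowest IR library was thus far above the highest Sham library. Its mean rose from 3.35 ± 0.210 to 39.1 ± 5.57 FPKM (SD, n = 3), a ratio of 11.7, with a log2 fold change of 3.20 (SE 0.0973, limma adjusted p = 1.17e-07). On this scale it was the 74th largest rise of the 10316 genes.

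Klf6 (ENSMUSG00000000078, mm10 chromosome 13, 5861482 to 5870394, plus strand, protein coding), which was described as an early gene of activated stellate cells in the rat, was at 3.78, 3.49 and 3.23 FPKM in Sham and at 43.7, 44.5 and 36.8 FPKM in IR. IR library 3 was the lowest of its group, and the groups did not overlap. The ratio of the means was 11.9 and the log2 fold change 3.24 (SE 0.0830, limma adjusted p = 5.60e-08), the largest of the 9 genes. The 3 genes nearest to Klf6 in pattern, by Euclidean distance of log2(FPKM + 1) centred on the Sham mean over the 6 libraries among 4891 genes with a mean of at least 5 FPKM, were Plscr1 (distance 0.211), Tead1 (0.238) and Ets2 (0.240).

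Nr4a1 (ENSMUSG00000023034, mm10 chromosome 15, 101254269 to 101274795, plus strand, protein coding), which is induced by cAMP and raises glucose output in liver, was at 0.543, 0.532 and 0.478 FPKM in Sham, from 90 to 134 rebuilt reads. In IR it was at 14.1, 9.40 and 10.4 FPKM, from 1963 to 2840 reads, with library 1 well above the others. Its mean rose 21.8-fold, the largest ratio of the 10 genes. This was a log2 fold change of 3.00 (SE 0.128, limma adjusted p = 5.54e-07). With a Sham mean of 0.518 FPKM, Nr4a1 passed the filter only through IR. The limma fit without a filter gave adjusted p = 2.03e-05. The pseudocount of 1 compresses a change that starts from such a low level: limma voom on rebuilt reads gave a log2 fold change of 4.41 (SE 0.283, adjusted p = 1.15e-07) and a pseudocount of 0.1 gave 4.18.

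Myc (ENSMUSG00000022346, mm10 chromosome 15, 61985391 to 61990374, plus strand, protein coding) was at 3.89, 3.94 and 4.02 FPKM in Sham, the tightest group after that of Klf15, and at 11.3, 13.4 and 12.98 FPKM in IR. The groups were far apart against their spread. The mean rose 3.18-fold, from 3.95 ± 0.0664 to 12.6 ± 1.12 FPKM, with a log2 fold change of 1.45 (SE 0.0664, limma adjusted p = 7.39e-07).

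Klf2 (ENSMUSG00000055148, mm10 chromosome 8, 72319033 to 72321656, plus strand, protein coding) was at 3.73, 3.00 and 2.81 FPKM in Sham and at 5.24, 5.49 and 7.23 FPKM in IR, a mean 1.88-fold higher. Sham library 1 was the highest of its group and IR library 3 the highest of the other, and the groups did not overlap. On the log2 scale Klf2 rose by 0.74 (SE 0.123, limma adjusted p = 0.000855). Klf4 (ENSMUSG00000003032, mm10 chromosome 4, 55527143 to 55532466, minus strand, protein coding) was at 0.472, 0.425 and 0.495 FPKM in Sham and at 0.589, 0.780 and 0.837 FPKM in IR, from 81 to 164 rebuilt reads a library. It was tested only in the limma fit without a filter on low values, which gave a difference of 0.24 on the log2 scale (SE 0.0703, adjusted p = 0.0329). That call was lost when any one library other than IR library 1 was left out, with adjusted p from 0.0736 (without Sham library 3) to 0.102 (without Sham library 2).

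Klf10 (ENSMUSG00000037465, mm10 chromosome 15, 38291463 to 38300706, minus strand, protein coding) was at 6.52, 6.60 and 7.18 FPKM in Sham and at 2.49, 2.37 and 2.01 FPKM in IR. Every IR library was below every Sham library. The mean fell 2.95-fold, with a log2 fold change of -1.24 (SE 0.0692, limma adjusted p = 1.95e-06), the largest fall of the 9 genes and the 628th of all genes tested. Its nearest genes in pattern by the same distance, among 4892 genes, were Gas2 (0.0843), Bdh1 (0.122) and Sfxn2 (0.138).

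Klf15 (ENSMUSG00000030087, mm10 chromosome 6, 90462576 to 90475238, plus strand, protein coding) was the most abundant of the 10 genes in both groups, at 57.6, 56.8 and 58.1 FPKM in Sham and at 45.7, 44.3 and 46.8 FPKM in IR. The libraries of each group lay close together and the groups did not overlap. The mean in IR was 0.793 of that in Sham, with a log2 fold change of -0.33 (SE 0.0412, limma adjusted p = 0.000167). Relative to the median of all genes that value was -0.09, and with median-of-ratios scaling Klf15 did not pass (-0.03, adjusted p = 0.508).

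Klf9 (ENSMUSG00000033863, mm10 chromosome 19, 23141226 to 23168134, plus strand, protein coding) was at 34.1, 36.8 and 36.4 FPKM in Sham and at 33.6, 36.1 and 35.9 FPKM in IR. The groups overlapped, and the gene did not pass (log2 fold change -0.02, SE 0.0510, limma adjusted p = 0.703). Under median-of-ratios scaling it was higher in IR (0.27, adjusted p = 0.00179). Klf13 (ENSMUSG00000052040, mm10 chromosome 7, 63886351 to 63938915, minus strand, protein coding), known as a regulator of chemokine expression in lymphocytes, was at 8.86, 9.11 and 9.66 FPKM in Sham and at 7.17, 8.72 and 8.74 FPKM in IR. IR library 1 stood below the other 5 libraries, and although the groups did not overlap the gene did not pass (log2 fold change -0.15, SE 0.0777, adjusted p = 0.106). The span of Klf13, introns included, overlaps Gm27252 and E030018B13Rik on the opposite strand. These were at 3.47 to 3.69 and 0.220 to 0.588 FPKM in Sham and at 6.002 to 6.72 and 4.28 to 5.53 FPKM in IR. Overlap of exons was not examined and the handling of strand is not given, so whether Klf13 shares reads with these genes is not known.

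**Figure D2:**
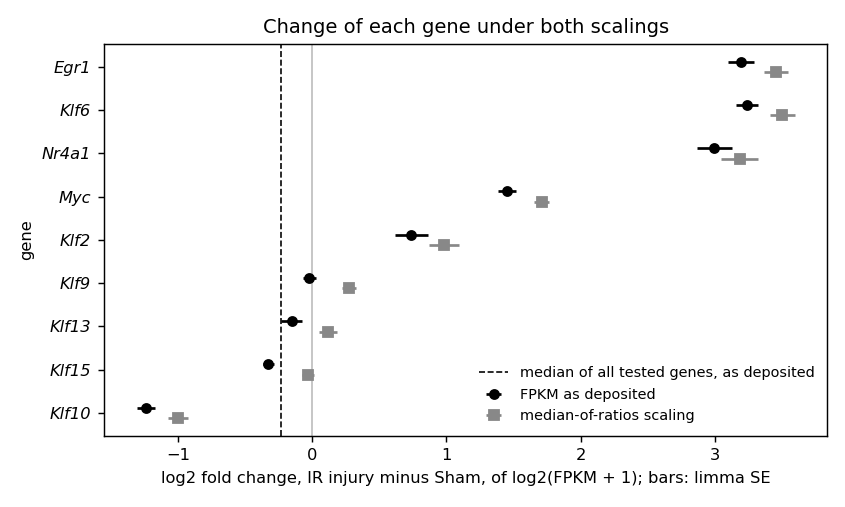
Log2 fold change of log2(FPKM + 1), IR minus Sham, with limma's SE as bars, for the 9 tested genes with FPKM as deposited (circles) and under median-of-ratios scaling (squares). The dashed line is the median of all genes tested at -0.23, near which Klf15 (-0.33) and Klf13 (-0.15) lie.

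An exact two-sided permutation test of each gene over the 6 libraries gave p = 0.5 for Klf9 and p = 0.1 for each of the other 9 genes, and 0.1 is the smallest p that 3 libraries against 3 allow. Within Sham, the coefficient of variation ran from 1.16% (Klf15) to 15.4% (Klf2), against a median of 5.76% over genes past the filter. Within IR it ran from 2.73% (Klf15) to 22.0% (Nr4a1), against a median of 6.63%, and Nr4a1, Klf2, Klf4 (17.7%) and Egr1 (14.3%) varied most. The IR library with the highest level was library 1 for Nr4a1, library 2 for Egr1, Klf6 and Myc, and library 3 for Klf2 and Klf4.

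The order of the levels differed between the groups. In Sham, Klf15 led, followed by Klf9, Klf13, Klf10 and Myc, and then by Klf6 (3.50 ± 0.274 FPKM), Egr1 (3.35 ± 0.210) and Klf2 (3.18 ± 0.490), whose ranges overlapped, and last by Nr4a1 (0.518 ± 0.0345) and Klf4 (0.464 ± 0.0358), whose ranges also overlapped. In IR, Klf15 (45.6 ± 1.25 FPKM), Klf6 (41.7 ± 4.23) and Egr1 (39.1 ± 5.57) led, with overlapping ranges for each neighbouring pair, ahead of Klf9 (35.2 ± 1.39), whose range overlapped that of Egr1. Myc (12.6 ± 1.12) and Nr4a1 (11.3 ± 2.49) followed, again with overlap, and then Klf13, Klf2, Klf10 and Klf4.

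The summed level of the 16 Klf genes in the table was 129, 131 and 132 FPKM in the Sham libraries and 164, 169 and 164 FPKM in the IR libraries. Every IR library was above every Sham library, with a ratio of the means of 1.27 and an exact two-sided permutation p of 0.1, the smallest possible. Klf15 and Klf9 together held 70.9% to 71.7% of the sum in Sham and 47.5% to 50.3% in IR. The share of Klf6 was 2.68% ± 0.241 in Sham and 25.1% ± 2.37 in IR, close to that of Klf15 in IR (27.5% ± 1.20). The share of Klf10 was 5.18% ± 0.216 and 1.38% ± 0.147. The 7 Klf genes followed here made up 89.0% to 89.1% of the sum in Sham and 84.1% to 84.6% in IR. Most of the rest in IR was Klf3, at 10.2% ± 0.296.

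**Figure D3:**
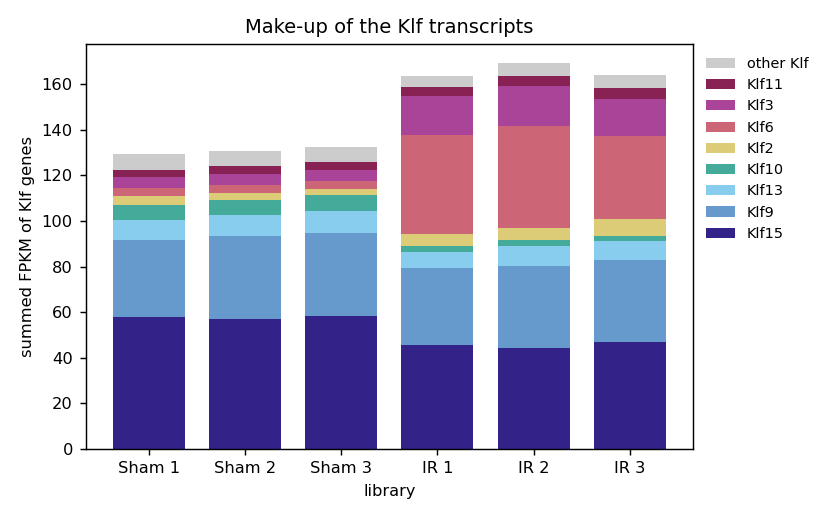
Summed FPKM of the Klf genes in each library, split by gene (stacked bars from 0). The sum is 129 to 132 FPKM in Sham and 164 to 169 in IR, and the Klf6 segment grows from 2.68% to 25.1% of it.

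Promoter sequence is shown for the most strongly raised genes that had one, for Klf2, and for the abundant Klf9 and Klf15. RefSeq windows (GRCm38.p6) of 300 bases, 250 before to 50 after the gene start, were held for 7 of the 10 genes, and 5 are printed 5′ to 3′ on the strand of the gene. Capitals mark TGACG on either strand, the core of the element bound by the cAMP-responsive factor CREB, and the E-box CACGTG, bound by MYC with MAX and by the clock factors CLOCK and BMAL1. The window of Nr4a1 belongs to a start within its annotated span.
Nr4a1 (chr15:101266596-101266895, plus strand): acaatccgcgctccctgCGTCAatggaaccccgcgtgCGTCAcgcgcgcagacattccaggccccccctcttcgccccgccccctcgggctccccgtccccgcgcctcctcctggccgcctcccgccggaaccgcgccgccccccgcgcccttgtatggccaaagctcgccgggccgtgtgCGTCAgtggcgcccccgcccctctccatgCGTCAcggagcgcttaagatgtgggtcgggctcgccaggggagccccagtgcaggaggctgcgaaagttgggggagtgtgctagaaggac
Klf6 (chr13:5861239-5861538, plus strand): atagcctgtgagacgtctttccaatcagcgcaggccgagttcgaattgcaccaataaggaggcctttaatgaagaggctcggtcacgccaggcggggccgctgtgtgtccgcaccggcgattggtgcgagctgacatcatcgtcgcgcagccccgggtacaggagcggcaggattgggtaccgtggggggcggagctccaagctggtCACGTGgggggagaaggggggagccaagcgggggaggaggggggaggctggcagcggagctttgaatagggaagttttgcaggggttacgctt
Klf2 (chr8:72318812-72319111, plus strand): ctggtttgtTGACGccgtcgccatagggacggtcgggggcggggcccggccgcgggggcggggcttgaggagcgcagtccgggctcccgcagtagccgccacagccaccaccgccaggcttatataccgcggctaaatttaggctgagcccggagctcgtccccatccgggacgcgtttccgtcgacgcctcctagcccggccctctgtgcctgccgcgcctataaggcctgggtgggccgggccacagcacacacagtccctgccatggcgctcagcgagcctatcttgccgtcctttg
Klf9 (chr19:23140976-23141275, plus strand): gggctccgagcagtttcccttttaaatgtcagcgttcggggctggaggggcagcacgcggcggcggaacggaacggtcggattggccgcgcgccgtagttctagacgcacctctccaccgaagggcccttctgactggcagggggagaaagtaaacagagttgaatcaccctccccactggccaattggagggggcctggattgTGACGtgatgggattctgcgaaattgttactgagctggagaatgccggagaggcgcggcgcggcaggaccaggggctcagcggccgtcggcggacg
Klf15 (chr6:90462326-90462625, plus strand): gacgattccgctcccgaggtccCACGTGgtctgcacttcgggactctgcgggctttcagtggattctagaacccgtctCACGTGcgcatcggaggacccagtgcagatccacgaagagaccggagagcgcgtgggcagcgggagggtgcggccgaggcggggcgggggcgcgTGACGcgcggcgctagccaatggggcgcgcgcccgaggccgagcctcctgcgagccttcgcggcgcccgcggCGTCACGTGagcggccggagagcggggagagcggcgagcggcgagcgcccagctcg

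The Nr4a1 window held 4 matches to TGACG, all read as CGTCA on this strand. At least 1 match was found in 20.8% of 32851 windows of the same length and at least 4 in 0.231%. Klf2, Klf9, Klf4 and Klf13 had 1 match each and Klf6 had none. The Klf15 window held 3 E-boxes, a number reached by 0.0883% of all windows, and 2 matches to TGACG, of which 1 overlaps an E-box. Klf6 and Klf4 had 1 E-box each, at least 1 being present in 7.15% of all windows, and Nr4a1, Klf2, Klf9 and Klf13 had none. The Egr site GCGNGGGCG had 1 match each in the Nr4a1, Klf2 and Klf15 windows and 2 in that of Klf4, against at least 1 in 5.55% and at least 2 in 0.813% of all windows, and it can overlap the GC box GGGCGG (35.7% of windows). The CArG box bound by serum response factor, searched as CCWWWWWWGG with W for A or T (1.63% of windows), matched in none of the 7. Neither did the NR4A element AAAGGTCA (1.51%). Egr1, Myc and Klf10 are not among these 7. These matches describe letters only, and binding was not measured.

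Among the other Klf and Sp genes, 16 of 19 had a row and 8 were tested. Of these 8, 3 rose and 1 fell, against 24.3% and 53.8% of all genes tested. Klf3, a repressor that recruits CtBP, rose from 4.80 ± 0.114 to 16.9 ± 0.746 FPKM (log2 fold change 1.63, SE 0.0491, limma adjusted p = 1.13e-07). Klf11, the closest relative of Klf10, rose (0.32, adjusted p = 0.000996) while Klf10 fell; the difference between these changes was not tested. Sp2 rose (0.19, adjusted p = 0.0148, and 0.0614 without Sham library 3). The erythroid factor Klf1 fell from 1.95 ± 0.209 to 0.618 ± 0.0868 FPKM (-0.86, adjusted p = 2.01e-05), while the 4 hemoglobin genes summed to 89.9 to 135 FPKM in Sham and 101 to 115 in IR. Under median-of-ratios scaling 5 of these 8 genes were higher and 1 lower.

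The paralogs of Nr4a1 and Egr1 were scarce. Nr4a3 was at 0.0501, 0.0279 and 0.0249 FPKM in Sham and at 1.71, 1.02 and 1.02 in IR, and Nr4a2 at 0.0591 to 0.0873 and 0.255 to 0.640, so that for both the IR libraries lay above the Sham libraries. Egr2 was at 0.0384 to 0.168 FPKM in Sham and 0.385 to 0.440 in IR, whereas Egr3 was at 0.0749 to 0.0822 and 0.0263 to 0.0475. All 4 were under the filter. In the limma fit without it Nr4a3 (adjusted p = 0.000648), Nr4a2 (0.0114) and Egr2 (0.00206) passed as higher and Egr3 (0.0203) as lower. Nab1 and Nab2, which bind EGR1 and repress its activity, fell, Nab2 from 3.58 ± 0.0141 to 2.12 ± 0.374 FPKM (log2 fold change -0.56, limma adjusted p = 0.000531) and Nab1 by less (-0.38, adjusted p = 0.000332). With median-of-ratios scaling Nab1 did not pass (-0.09, adjusted p = 0.126).

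Of 10 tested genes of the network around MYC, 3 rose and 5 fell, shares near the 24.3% higher and 53.8% lower of all genes tested, with a median log2 fold change of -0.05. Max, the obligate partner of MYC, rose from 7.54 ± 0.342 to 9.86 ± 0.563 FPKM (0.34, limma adjusted p = 0.000779), and the MAX-binding repressor genes Mxd1 (1.16) and Mnt (0.58) rose. Mycl, the paralog of Myc, was at 2.90, 3.60 and 2.94 FPKM in Sham and at 0.112, 0.219 and 0.202 FPKM in IR (-1.81, adjusted p = 6.85e-07), the opposite direction to Myc. Mlxipl, the carbohydrate-responsive factor ChREBP (-1.16), and the MAX-binding repressors Mxd4 (-0.88) and Mxi1 (-0.28) fell, as did Mga (-0.19, adjusted p = 0.0359). Calls of Mxi1 and Mga were lost under median-of-ratios scaling (adjusted p = 0.329 and 0.924), where 5 genes were higher and 3 lower, and that of Mga also without any one of the Sham libraries or IR library 1 (adjusted p from 0.0696 to 0.0932). Mycn and Mxd3 were under the filter. In the limma fit without it Mxd3 passed as lower (-0.14, adjusted p = 0.0422) and Mycn did not pass.

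Of 14 genes reported as MYC targets, 8 rose and 3 fell (median 0.21), against 24.3% and 53.8% of all genes tested. Odc1, the rate-limiting enzyme of polyamine synthesis, rose from 16.3 ± 0.177 to 65.0 ± 9.31 FPKM (log2 fold change 1.92, limma adjusted p = 9.58e-07), and the nucleolar gene Nop58 (1.43) and the cap-binding factor gene Eif4e (1.28) rose. Shmt2 of serine and glycine metabolism (-1.01) and the cell cycle kinase gene Cdk4 (-0.87) fell, as did Polr1b of RNA polymerase I (-0.21, adjusted p = 0.0275). Polr1b had the opposite sign under median-of-ratios scaling (0.03, adjusted p = 0.717) and did not pass without Sham library 1 (0.0721) or Sham library 3 (0.0851). Of 6 tested genes reported as EGR1 targets, 3 rose and 3 fell (median 0.29), beside those same shares of all genes. The matrix protein gene Thbs1 rose from 0.414 ± 0.0453 to 15.8 ± 1.71 FPKM (log2 fold change 3.57, limma adjusted p = 3.34e-08), and Gdf15 (2.71) and the adhesion molecule gene Icam1 (0.99) rose. With that Sham mean, Thbs1 passed the filter only through IR. Nab2, the tissue factor gene F3 (-0.43) and Pdgfa (-0.41) fell, of which F3 missed the threshold with median-of-ratios scaling (adjusted p = 0.113) and both F3 (0.113) and Pdgfa (0.124) with quantile normalization.

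Factors that act upstream of immediate early genes were mostly higher. Of 13 tested, 9 rose and 1 fell (median 0.44), and 12 were higher and 1 lower under median-of-ratios scaling. Of all genes tested 24.3% were higher and 53.8% lower, and under that scaling 38.2% and 38.1%. Crem, a cAMP-responsive modulator that is itself cAMP-inducible, rose from 2.33 ± 0.125 to 25.7 ± 2.91 FPKM (log2 fold change 3.00, limma adjusted p = 6.80e-08). Mrtfa, a coactivator of serum response factor (1.33), and its partner Elk1 (1.17) rose, while Elk3 fell from 2.06 ± 0.129 to 0.338 ± 0.0632 FPKM (-1.19). Of the other immediate early genes all 17 that were tested rose (median 1.75), as did 24.3% of all genes tested. Fos and Atf3, with Sham means of 0.557 and 0.730 FPKM, passed the filter only through IR. For both, being tested already meant being higher in IR. Atf3 (5.45), Btg2 (3.91), Maff (3.85) and Ier3 (3.43) changed most. Klf6, Egr1 and Nr4a1 thus lay below these 4 on the log2(FPKM + 1) scale and above the median of that list, and Myc lay below its median.

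**Figure D4:**
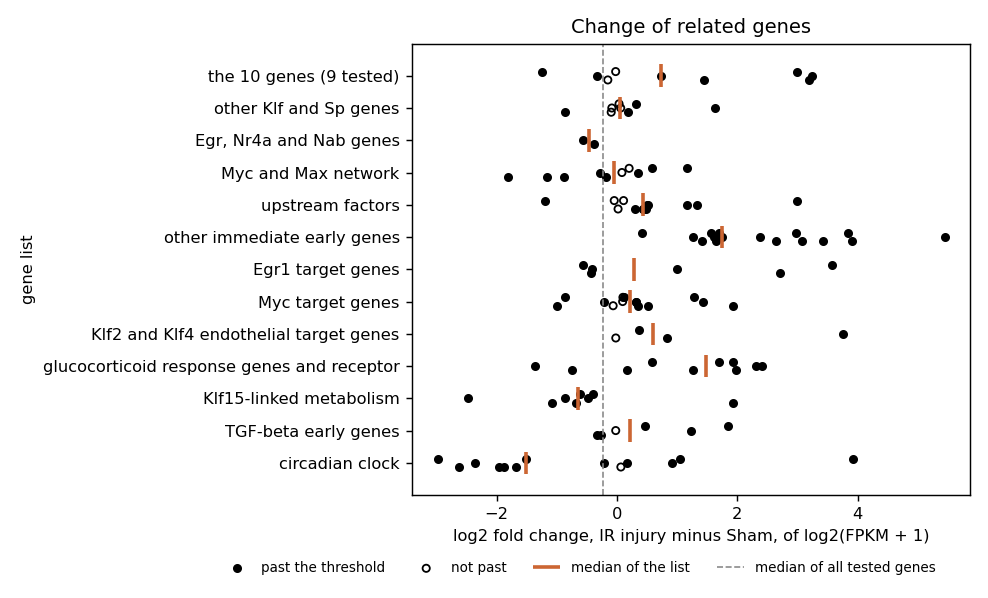
Log2 fold change of log2(FPKM + 1), IR minus Sham, of each tested gene in the lists of related genes (filled points passed the adjusted threshold, open points did not), with the median of each list (orange) and of all genes tested (dashed, -0.23). The other immediate early genes all lie above 0, and 7 of the 8 genes linked to KLF15 lie below it.

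Klf2 and Klf4 were set beside endothelial genes. Of 7 genes reported as their targets in endothelium, 4 were tested and the others lay under the filter. Of the 4, 3 rose and 1 did not pass, with 24.3% of all genes tested higher. In the limma fit without a filter 1 of the 7 passed as lower. Thbd, the anticoagulant receptor thrombomodulin, was at 0.765, 0.876 and 1.03 FPKM in Sham and at 17.5, 24.5 and 33.8 in IR (log2 fold change 3.75, limma adjusted p = 1.66e-06). With a Sham mean under 1 FPKM, Thbd passed the filter only through IR, so that being tested already meant being higher in IR. Nos3, the endothelial nitric oxide synthase (0.83, adjusted p = 0.00245), and the sphingosine receptor gene S1pr1 (0.36, adjusted p = 0.0227) rose, S1pr1 with adjusted p of 0.0534, 0.0604, 0.0739 and 0.0651 without Sham library 1, Sham library 3, IR library 2 or IR library 3. Of 8 markers of sinusoidal endothelium, 6 fell (53.8% of all genes tested did), Pecam1 did not pass and Cdh5, the junction protein VE-cadherin, rose. Their sum was 58.4, 58.4 and 53.4 FPKM in Sham and 21.5, 30.0 and 41.5 FPKM in IR libraries 1, 2 and 3. Cdh5 is part of that sum, and the other 7 markers summed to 51.2, 50.7 and 46.7 FPKM in Sham and to 12.8, 18.4 and 25.6 FPKM in IR. Klf2, Klf4 and Thbd were, like the sum of those 7, lowest in IR library 1 and highest in IR library 3, as was Cdh5. That order was not particular to endothelial genes. The sums of the neutrophil markers (139, 164 and 184 FPKM) and of the stellate cell markers (22.2, 23.6 and 31.7 FPKM) had it too. Those of the hepatocyte and Kupffer cell markers did not, and the share of all genes with that order was not counted. The part of the endothelial content of a library in the levels of Klf2 and Klf4 was not tested.

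**Figure D5:**
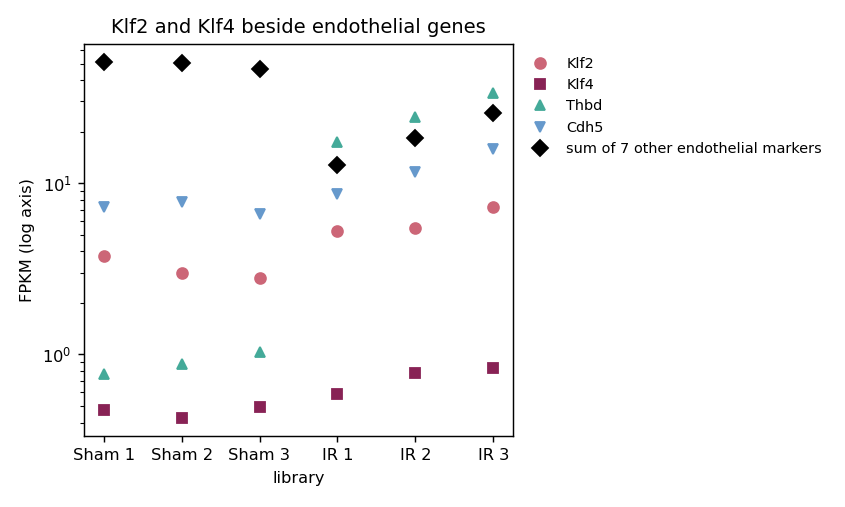
FPKM on a log axis of Klf2, Klf4, Thbd and Cdh5 and the sum of 7 sinusoidal endothelial markers without Cdh5 in each library. The sum is lower in IR than in Sham (12.8 to 25.6 against 46.7 to 51.2), whereas Klf2, Klf4, Thbd and Cdh5 are higher in each IR library than in any Sham library.

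Klf9 is itself known as a glucocorticoid-induced gene, and it was set beside a list of other such genes that also holds the receptor gene Nr3c1. Of these 10 genes, Klf9 not included, 8 rose and 2 fell (median 1.48), against 24.3% and 53.8% of all genes tested. The metallothionein gene Mt2 (2.40), Zbtb16 (2.30), Cebpd (1.98) and Tat (1.93) rose most, each past the limma threshold, while Tsc22d3, the glucocorticoid-induced leucine zipper, fell from 15.0 ± 0.819 to 5.22 ± 0.438 FPKM (-1.37) and Nr3c1, which is the receptor and not counted as an induced gene, fell from 9.34 ± 0.490 to 5.18 ± 0.171 FPKM (-0.74). Klf9, at a ratio of 0.984 between the means, did not pass with FPKM as deposited.

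Of 8 genes of amino acid breakdown and gluconeogenesis linked to KLF15, 7 fell and 1 rose (median -0.65). Over all genes tested 53.8% fell and 24.3% rose (median -0.23). Under median-of-ratios scaling the counts of these 8 genes were the same and their median was -0.36, with 38.1% of all genes lower. The branched-chain aminotransferase gene Bcat2 fell from 10.2 ± 0.325 to 1.01 ± 0.0251 FPKM (log2 fold change -2.48, limma adjusted p = 2.16e-08). Prodh of proline breakdown (-1.08) and the alanine aminotransferase gene Gpt (-0.87) fell, while Tat, the tyrosine aminotransferase gene, rose from 617 ± 5.52 to 2356 ± 117 FPKM.

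Klf9, Klf10 and Klf15 are also known as outputs of the circadian clock, and the time of day of sampling is not given. Of 13 tested clock genes, 8 fell and 4 rose, against 53.8% lower and 24.3% higher of all genes tested. Their median was -1.51, and that of all genes was -0.23. The clock-output gene Dbp fell from 34.9 ± 2.73 to 3.56 ± 0.562 FPKM (log2 fold change -2.98, limma adjusted p = 1.62e-07), and Per3 (-2.63) and Hlf (-2.36) fell. Nfil3, a repressor that opposes Dbp, rose from 5.55 ± 0.296 to 99.1 ± 12.8 FPKM (3.93, adjusted p = 3.83e-08), and Cry2 (1.05), Cry1 (0.91) and Per1 (0.17) rose. Transforming growth factor beta is the pathway for which Klf10 was named. Of its 6 tested early genes 3 rose and 2 fell, against 24.3% and 53.8% of all genes tested. Tgif1 (1.85), Skil (1.24) and Id1 (0.46) rose, while Smurf1 (-0.33) and Smad7 (-0.27) fell, both without passing under median-of-ratios scaling (adjusted p = 0.0783 and 0.131).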

How the data were processed

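The authors deposited 1 table of FPKM values, with 1 column per library, gene IDs and symbols. The build was mm10, per the submitters' processing notes; for the aligner, counter, annotation, strand handling and scaling total, nothing is given in the sources used here. Total RNA went into SMARTER mRNA-Seq libraries, per the labels' protocols. Libraries were put in groups by their titles. GENCODE M21 (same assembly) held 28977 of 29543 gene IDs and gave coordinates and exon lengths. FPKM times exon length times a fitted library total gave whole reads within 0.05 for 98.3% of 27072 listed genes; these rebuilt reads gave depth and 1 added test. Pairs of libraries within a group differed beyond counting noise (median chi-square per gene 1.90 to 3.73), so each was counted once.

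Where the mean was 1 FPKM or more, a gene entered limma 3.58.1 (R 4.3.3, trend, two-sided) as log2(FPKM + 1), and p-values were adjusted over all genes tested by Benjamini-Hochberg. This scale understates changes of low genes. A gene under 1 FPKM in 1 group passed the filter only through the other, where it was higher. Among others this held for Nr4a1, Atf3, Fos, Thbs1 and Thbd, low in Sham, and for Mycl, Elk3 and Klf1, low in IR. The fit was checked on simulated data in which few genes changed, as many up as down. That check therefore does not cover a shift of most genes, on which calls such as those of Klf9 and Klf15 turn. Means are ± SD over 3 libraries. The 10 genes, the lists, the marker genes and the tests were chosen with earlier results of these data known. All 10 genes and the called members of the family lists are named; of the other lists, up to 4 with the largest change past the threshold, and further genes where a count was 5 or fewer, the latter chosen after their values were seen. From 1 list a gene is not reported here and was left out of the counts. For the largest rise and the largest fall, the 3 nearest genes in pattern are named. Alternatives were a pseudocount of 0.1, no filter, a mean of at least 5 FPKM, median-of-ratios, quantile and TPM scaling, untrended and robust fits, a replicate block, and each library left out in turn. Added after seeing the data were the unfiltered fits for Klf4 and a limma voom fit of the rebuilt reads. Sums, permutation tests and plots used matplotlib 3.10.9, scipy 1.17.1, numpy 2.4.6 and pandas 2.3.3 in Python 3.11.15.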

Additional observations from a re-analysis of the deposited data

How the results depend on the processing

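Egr1, Klf6, Nr4a1, Myc, Klf2 and Klf10 kept their direction and stayed past the threshold in every alternative in which they were tested; Klf2 and Klf10 fall under a filter at a mean of 5 FPKM, which left 1 of the 10 genes lower. Median-of-ratios scaling also left 1 lower: Klf15 was at -0.0328 and did not pass, Klf9 was at 0.27 and passed, and Klf13 was at 0.12. Klf9 was at 0.11 with quantile normalization and between -0.0561 and 0.00966 when 1 library was left out. Klf4, tested without a filter, was at 0.247, 0.223 and 0.258 without Sham library 1, 2 or 3 and at 0.223 and 0.200 without IR library 2 or 3, none of which passed, and at 0.305 without IR library 1, which did. The ratio of the summed Klf level was 1.56 under median-of-ratios scaling, against 1.27. That scaling moved the number of genes higher in IR from 2505 to 3939, the filter at 5 FPKM gave 1359 higher and 2573 lower, and no filter gave 8843 lower against 5548, with more genes tested. Of the genes in the lists, Polr1b was at 0.0260 under median-of-ratios scaling, and Mga at 0.0782 and Smad7 at 0.0087 with quantile normalization. The cause of these changes was not tested beyond the number of genes tested and the shift of the median.

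Same-numbered libraries did not deviate together (correlations of -0.04, 0.01 and -0.10 over genes). The fit with the replicate number as a block gave 2473 genes higher and 5491 lower and changed no call among the 9 tested genes, with Klf2 at 0.74 (limma adjusted p = 0.00479). Leaving out each library changed no call of these 9. Precision rests on 3 libraries a group, and depth limits Klf4 and Nr4a1 in Sham most, with 81 to 134 rebuilt reads.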
